A study of Mus musculus with 6 samples.

Results

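Transcripts of 8 genes of the dystrophin and utrophin complex were examined in the mouse tibialis anterior, a hindlimb muscle of mostly fast fibres, after removal of the SH3 domain of nebulin, a giant protein of the thin filament. The genes were Dmd, Utrn, Dag1, Sgca, Sgcb, Dtna, Sspn and Cav3, chosen by symbol from 19057 gene symbols on the array, and 23 of its 45281 probes carried one of these symbols in the platform annotation. Total RNA came from male mice, 3 wild type and 3 carrying the nebulin SH3 deletion (Neb SH3-deleted), all 8 weeks old and of the mixed Sv129/Black Swiss background, and was hybridised to Illumina bead arrays, 1 array per animal. The series describes the replicates as biological, and the labels give neither the zygosity of the deletion nor the litters. Where 3 values are given for a genotype, they are replicates 1, 2 and 3 in that order.

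Dystrophin, the product of Dmd, links the actin cytoskeleton under the fibre membrane to dystroglycan (Dag1), which binds laminin outside the cell. The sarcoglycans (Sgca and Sgcb among them) and sarcospan (Sspn) form a subcomplex in the membrane beside dystroglycan, and α-dystrobrevin (Dtna) binds dystrophin on the inner face together with syntrophins. Utrophin (Utrn) is a close relative of dystrophin that in adult muscle is concentrated at the neuromuscular junction and is also made by other cells of the tissue such as endothelium, and caveolin-3 (Cav3), the muscle form of the caveolar coat protein, binds the tail of β-dystroglycan. Loss of dystrophin or of a sarcoglycan causes muscular dystrophy.

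The arrays were dim, and this set what could be seen of the complex. A probe was called above background where its detection p-value, the deposited p of its signal against the negative controls of the array, was under 0.05, which held for 8.83% to 12.9% of all probes per array (4000 to 5844 probes). Median signals were 83.3 to 88.9 intensity units. The muscle fibre markers listed for the tissue check were bright, with 9 of 10 genes above background on at least 3 arrays and a mean normalized level of 8.94 to 9.12 (log2 intensity) in wild type and 8.85 to 9.22 in Neb SH3-deleted muscle. The 1 probe of Neb (ILMN_1235161) had detection p-values of 0.543 to 0.882, all above the threshold, and does not check the genotype labels. On the first principal component Neb SH3-deleted replicate 1 (12.4) and wild type replicate 2 (10.7) stood apart from the other 4 arrays (-6.64 to -5.09), so values without both are given where a result rests on them.

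Of the 23 probes of the complex, 2 were above background on all 6 arrays (beside 3.33% of all probes), 2 on 5, 2 on 4, 2 on 3, 1 on a single array and 14 on none. The 8 probes above background on at least 3 arrays (34.8%) were tested, beside 7.56% of all probes of the array. They belonged to 6 of the 8 genes. On single arrays 5 to 7 of the 23 probes were above background, with 7, 5 and 6 on the wild type arrays and 6, 6 and 7 on the Neb SH3-deleted arrays. By the accessions in the annotation, 17 of the probes were designed on a current RefSeq transcript of their gene and 6 on other cDNA sequences (1 of Dmd, 3 of Utrn and 2 of Dtna). All 8 tested probes were among the 17.

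**Figure D1:**
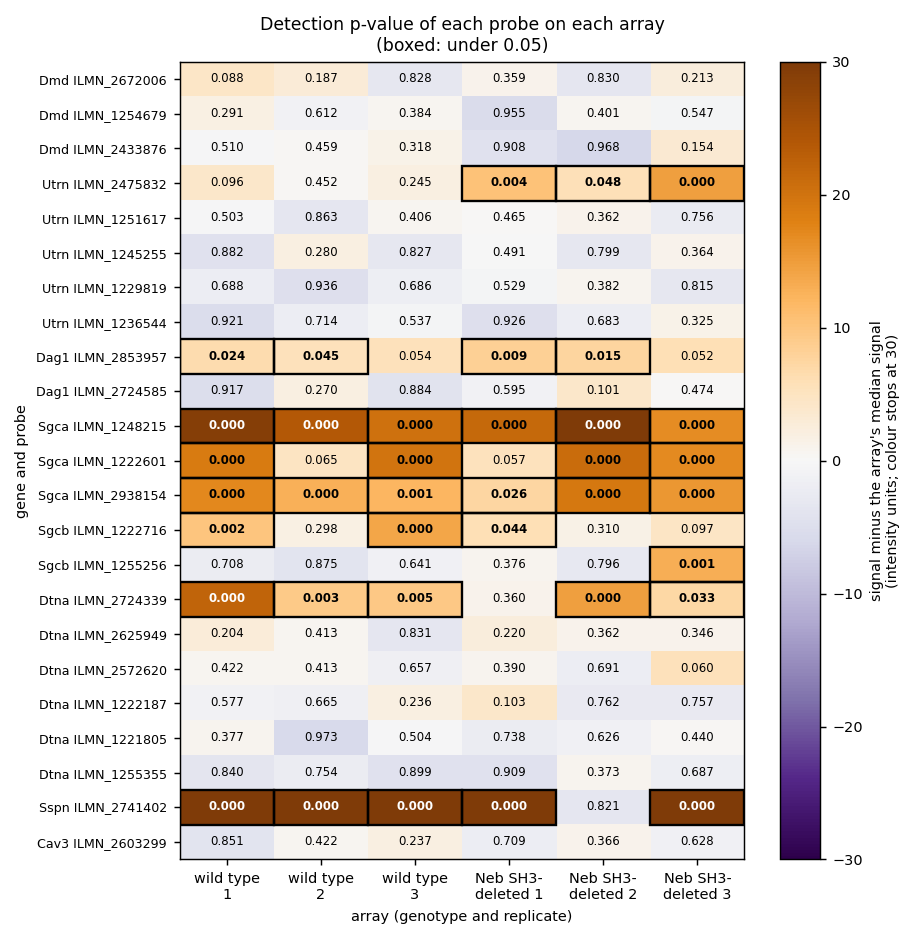
Each row is a probe of the complex and each column an array; the number is the detection p-value, boxes mark values under 0.05, and the colour is the signal minus the median signal of that array (intensity units, stopped at 30). All 3 Sgca probes have boxes on at least 4 arrays and the Sspn probe on 5, Dmd and Cav3 have no box, and 1 of 5 Utrn probes is boxed on the 3 Neb SH3-deleted arrays only.

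None of the 8 tested probes passed an adjusted p of 0.05 between the genotypes (limma, Benjamini-Hochberg over 3422 tested probes), and 0% of all tested probes did. At an unadjusted p under 0.05 there was 1 probe of the complex, beside 4.30% of all tested probes. It was a Utrn probe that passed the filter through its Neb SH3-deleted arrays alone. The differences of the 8 probes ran from -0.98 to 0.49 (log2, Neb SH3-deleted minus wild type), with 5 higher and 3 lower and a median of 0.07, while 43.9% of all tested probes were higher and their median was -0.03. The adjusted p-values of the 8 probes lay between 0.984 and 0.991. Precision was limited by 3 arrays a group: the 95% intervals reached a median of 0.41 to either side of the estimate for the 8 probes and 0.40 for all tested probes. A lower transcript level in whole muscle can come from fewer cells of a type or from less RNA per cell, and these cannot be told apart.

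**Figure D2:**
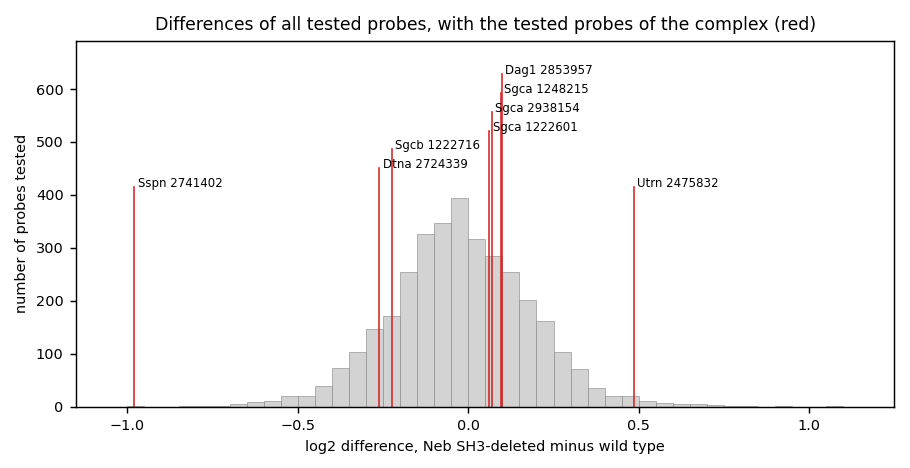
The grey histogram counts all 3422 tested probes by log2 difference (Neb SH3-deleted minus wild type), and red lines mark the 8 tested probes of the complex, whose heights only separate the names. Sspn lies at the lowest value of all tested probes (-0.98), Utrn at 0.49, and the others between -0.26 and 0.10.

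Dystrophin itself was not measured. All 3 Dmd probes, 2 of them designed on a RefSeq transcript, stayed at background on all 6 arrays, with signals of 78.6 to 92.3 units and detection p-values of 0.0876 to 0.968. The lowest of these detection p-values came from ILMN_2672006, which stood 4.23, 2.85 and -3.27 units from the array median on the wild type arrays and 0.97, -3.50 and 2.58 units from it on the Neb SH3-deleted arrays. Both genotypes thus lay on either side of the median, and no fold is given for Dmd.

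Utrophin, which in mouse muscle can take over part of the role of dystrophin, was read by 5 probes, and they differed. One of them, ILMN_2475832, had signals of 90.7, 83.7 and 85.9 units on the wild type arrays (detection p 0.0962, 0.452 and 0.245) and 95.8, 90.5 and 103.6 units on the Neb SH3-deleted arrays (detection p 0.00427, 0.0481 and 0). It was above background on none of the wild type and all of the Neb SH3-deleted arrays, as were 0.584% of all tested probes (20 of 3422). In these signals the groups overlapped, since wild type replicate 1 (90.7 units) lay just above Neb SH3-deleted replicate 2 (90.5 units), whose detection p was just under the threshold. After normalization the levels were 4.33, 4.21 and 4.25 against 4.79, 4.40 and 5.07 (log2), which did not overlap. Since the probe entered the test through its Neb SH3-deleted arrays alone, its being higher there follows in part from the filter. The mean normalized level of Utrn was 4.27 ± 0.06 in wild type and 4.75 ± 0.33 in Neb SH3-deleted muscle (log2, SD, n = 3 each).

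The fitted Utrn difference was 0.49 on the log2 scale (95% interval 0.07 to 0.90, adjusted p 0.984 by limma), and because of the filter its interval is a description and not a test. The wild type arrays gave only upper limits. With the lowest level above background taken for each of them, the mean of the Neb SH3-deleted arrays was 1.29-fold higher. That fold is not a guaranteed minimum, since it carries no error for the Neb SH3-deleted arrays and the interval above starts at 0.07 (log2). It belongs to the background correction used and to all 3 arrays of each group, and the differences below include smaller ones. Normalized levels that did not overlap, with Neb SH3-deleted higher, were found for 3.24% of all tested probes. Left out in turn, the arrays gave 0.33 (without Neb SH3-deleted replicate 3) to 0.66 (without Neb SH3-deleted replicate 2), and without the 2 arrays that stood apart the value was 0.44. With no background correction it was 0.16 and in the deposited values 0.15.

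The other 4 Utrn probes did not show this. ILMN_1236544, which carries the same RefSeq transcript accession, had signals of 81.4, 81.4 and 83.5 units in wild type and 80.5, 82.9 and 90.2 on the Neb SH3-deleted arrays, and was above background on 0 of 6 arrays. The 3 probes designed on other cDNA sequences were also above background on none, and in a fit without the filter the 4 probes were at log2 differences of 0.01 to 0.04, values that carry no measured level. The higher Utrn signal in Neb SH3-deleted muscle therefore rests on 1 of 5 probes.

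Markers of the cells in which utrophin is also found gave these values beside it. Of 8 endothelial and pericyte markers, all on the array, 2 were tested, and both were lower in Neb SH3-deleted muscle without passing the test: Rgs5, a pericyte regulator of G protein signalling, at -0.40 (log2, adjusted p 0.984 by limma) and Pecam1, an endothelial adhesion protein, at -0.15 (adjusted p 0.984). Pecam1 was above background on all 3 wild type arrays and on 0 of the Neb SH3-deleted arrays, so its lower value follows in part from the filter. The mean level of both was 4.65 to 4.89 in wild type and 4.41 to 4.59 in Neb SH3-deleted arrays, without overlap, beside 5.82% of single tested probes that were lower without overlap. Tek, Tie1 and Pdgfrb were above background on no array. Of 11 neuromuscular junction genes 1 was tested, Rapsn, which clusters acetylcholine receptors, at 0.14 with overlapping groups (mean level 4.35 to 4.39 in wild type, 4.33 to 4.78 in Neb SH3-deleted arrays). Of 4 Schwann cell and nerve markers on the array 0 were tested, with S100b above background on none. The part of these cells in the Utrn signal was not tested.

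Dystroglycan, the laminin receptor that dystrophin and utrophin both bind, was close to the detection limit. Its probe ILMN_2853957 gave signals of 93.1, 88.9 and 89.4 units on the wild type arrays (detection p 0.0235, 0.0449 and 0.0545) and 93.7, 92.4 and 94.9 units on the Neb SH3-deleted arrays (0.00855, 0.0150 and 0.0524). Each genotype had 2 arrays under the threshold and 1 just over it. The normalized level of Dag1 was 4.41 ± 0.01 in wild type and 4.51 ± 0.11 in Neb SH3-deleted muscle (log2, SD, n = 3 each), and the groups overlapped. The difference was 0.10 (95% interval -0.23 to 0.43, adjusted p 0.984 by limma), and the interval ended at 1.34-fold up and 1.17-fold down in normalized levels. The offset added in the background correction makes these folds smaller than those of the transcript. They therefore set no limit on a change of the Dag1 transcript. Without the 2 arrays that stood apart the difference was 0.04. A second Dag1 probe was above background on no array.

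α-Sarcoglycan, the member of the sarcoglycan complex found mainly in striated muscle, was the gene of the complex with the most tested probes, 3 of 3. One of them, ILMN_1248215, gave 115.8, 107.1 and 104.2 units on the wild type arrays and 106.9, 116.8 and 105.6 units on the Neb SH3-deleted arrays, and its detection p was 0 on every array. Its normalized level was 5.21 ± 0.06 in wild type and 5.31 ± 0.12 in Neb SH3-deleted muscle (log2, SD, n = 3 each), a difference of 0.10 (95% interval -0.24 to 0.43, adjusted p 0.984 by limma). The groups overlapped, and the interval ended at 1.35-fold up and 1.18-fold down in normalized levels. The offset makes these folds smaller than those of the transcript here too.

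The other Sgca probes gave similar small differences with more spread between animals. ILMN_2938154 was above background on all 6 arrays and had normalized levels of 4.87, 4.78 and 4.78 on the wild type arrays and 4.54, 4.97 and 5.12 on the Neb SH3-deleted arrays, a difference of 0.07 (-0.33 to 0.47). Here the wild type arrays lay inside the range of the Neb SH3-deleted arrays. ILMN_1222601 was at 4.93, 4.37 and 5.13 on the wild type arrays and at 4.41, 5.03 and 5.18 on the Neb SH3-deleted arrays, a difference of 0.06 (-0.48 to 0.61). This probe fell below the detection threshold on Neb SH3-deleted replicate 1 and wild type replicate 2, the 2 arrays that stood apart on the first principal component, and without both its difference was 0.07. Without both, ILMN_2938154 was at 0.22 and ILMN_1248215 at 0.06. When arrays were scaled to a common median and not quantile normalized, the 3 Sgca probes were at -0.06, -0.02 and -0.02 (in the order ILMN_1248215, ILMN_1222601, ILMN_2938154), so no direction is given for Sgca.

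**Figure D3:**
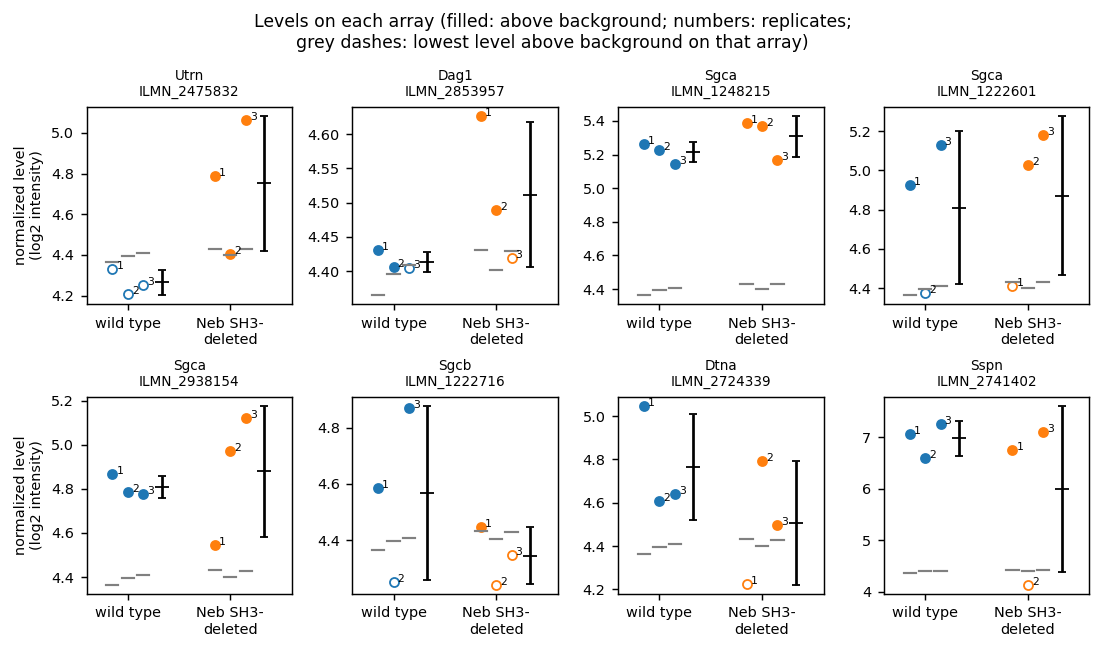
Points are the normalized levels (log2 intensity) of the 8 tested probes on each array, numbered by replicate and filled where above background; black bars give the mean ± SD of each group and grey dashes the lowest level above background on each array. The axes differ between panels; the groups are apart for Utrn only, and Sspn is at background in Neb SH3-deleted replicate 2 alone.

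β-Sarcoglycan, a core subunit of the same complex, passed the detection threshold on 2 arrays of the wild type and on 1 of the Neb SH3-deleted mice. Its probe ILMN_1222716 gave 96.6, 85.1 and 97.9 units on the wild type arrays (detection p 0.00214, 0.298 and 0) and 91.3, 86.3 and 93.4 units on the Neb SH3-deleted arrays (0.0438, 0.310 and 0.0972). Wild type replicates 1 and 3 were the high arrays, and wild type replicate 2 was the lowest of the 6 in these signals. The difference was -0.22 (log2, 95% interval -0.63 to 0.18, adjusted p 0.984 by limma), and it ran from -0.38 to -0.07 with 1 array left out, the smallest without wild type replicate 3 and the largest without wild type replicate 2. Without the 2 arrays that stood apart it was -0.43. The second Sgcb probe, ILMN_1255256, failed the filter and went the other way, with 101.8 units in Neb SH3-deleted replicate 3 (detection p 0.00107) and 79.6 to 86.2 units on the other 5 arrays. The 2 probes thus gave no common direction for Sgcb.

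α-Dystrobrevin, which holds syntrophins at dystrophin, was read by 6 probes, of which 1 was tested and 5 were above background on no array. The tested probe, ILMN_2724339, gave 108.8, 92.6 and 93.6 units on the wild type arrays and 86.3, 99.5 and 96.2 units on the Neb SH3-deleted arrays. It was above background on every array but Neb SH3-deleted replicate 1 (detection p 0.360), and the groups overlapped. Normalized levels of Dtna were 4.77 ± 0.24 and 4.51 ± 0.28 (log2, SD, n = 3 each), a difference of -0.26 (95% interval -0.69 to 0.17, adjusted p 0.984 by limma). Without Neb SH3-deleted replicate 1 the difference was -0.12, without wild type replicate 1 it was also -0.12, and without Neb SH3-deleted replicate 2 it was -0.40. Without the 2 arrays that stood apart it was -0.20.

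Sarcospan, a small membrane protein with several membrane-spanning segments that binds the sarcoglycans, showed the largest difference of the complex, and it rested on 1 array. Its 1 probe, ILMN_2741402, gave 239.5, 170.5 and 215.1 units on the wild type arrays and 157.7, 81.4 and 184.1 units on the Neb SH3-deleted arrays. Neb SH3-deleted replicate 2 lay -3.39 units from the median signal of its array (detection p 0.821), while the other 5 arrays stood 72.4 to 152.9 units above theirs with a detection p of 0. In normalized levels Sspn was at 7.07, 6.60 and 7.26 on the wild type arrays and at 6.76, 4.14 and 7.09 on the Neb SH3-deleted arrays. The probe was measured on 2 of the 3 Neb SH3-deleted arrays. On these its normalized levels lay within the range of the wild type arrays, while in signal Neb SH3-deleted replicate 1 was below the lowest wild type array.

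Over all 3 arrays the Sspn difference was -0.98 (log2, 95% interval -2.32 to 0.36, adjusted p 0.984 by limma), the lowest of the 3422 tested probes by size but only 411 by rank of p. Without Neb SH3-deleted replicate 2 it was -0.05, and with any other array left out it lay between -1.53 and -0.84. Without the 2 arrays that stood apart, which keeps Neb SH3-deleted replicate 2 as 1 of 2 arrays of its group, it was -1.55 (unadjusted p 0.0218, adjusted p 0.944 by limma). The gap between Neb SH3-deleted replicate 2 and the next lowest array was 2.46 on the log2 scale, the widest such gap of a lowest array among all tested probes, and no other tested probe had a gap of over 2, a limit set after the values were seen. On that array 4667 probes were above background, within the range of the others, and 6 of the 23 probes of the complex were. The Sgca probe ILMN_1248215 had its highest signal of the 6 arrays there (116.8 units). With 1 array per animal, the animal and the array cannot be told apart as the source of the low Sspn value, and neither was tested.

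Caveolin-3 was not measured. Its 1 probe, ILMN_2603299, gave 82.7, 83.9 and 86.0 units on the wild type arrays and 83.4, 85.8 and 87.6 units on the Neb SH3-deleted arrays, with detection p-values of 0.237 to 0.851. These signals were within 3.91 units of the array medians on all 6 arrays, and no fold is given.

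**Figure D4:**
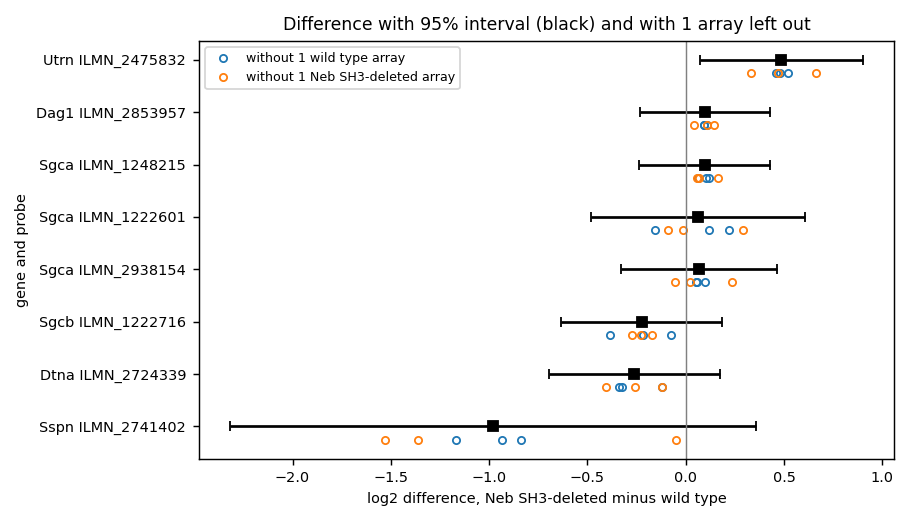
Black squares are log2 differences (Neb SH3-deleted minus wild type) of the 8 tested probes with 95% intervals, and open circles the same with 1 wild type (blue) or Neb SH3-deleted (orange) array left out. The Utrn probe passed the filter only through its 3 Neb SH3-deleted arrays, so that its interval above 0 follows in part from the filter, and the Sspn estimate moves from -0.98 to -0.05 without Neb SH3-deleted replicate 2.

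The remaining subunits of the complex were hardly seen. Of 9 further subunit genes on the array, which were the δ-, ε- and ζ-sarcoglycans (Sgcd, Sgce and Sgcz), the syntrophins Sntb1, Sntb2, Sntg1 and Sntg2, β-dystrobrevin (Dtnb) and the nitric oxide synthase that syntrophin anchors (Nos1), 0 were tested. Nos1 was above background on 1 array at most per probe and the other 8 on none.

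With the neuromuscular junction, the 6 lists of genes around the complex held 27 tested genes, and 0 of them passed the test in either direction, beside 0% of all tested probes. Among laminins and other matrix ligands of dystroglycan 4 of 10 genes were tested, 2 higher and 2 lower (median -0.01): Bgn, the proteoglycan biglycan, was at 0.25 (log2, 95% interval -0.08 to 0.58), Lamb2, a laminin chain, at -0.13 (-0.60 to 0.33), and Hspg2 (perlecan) at -0.05 (-0.65 to 0.55), while a further Hspg2 probe gave 0.12. The laminin chains Lama2, Lama4, Lama5 and Lamb1 were above background on no array. Bgn did not overlap between the groups, as was so for 3.24% of tested probes in that direction.

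Of 13 enzymes of dystroglycan glycosylation on the array, which build the sugar chain that laminin binds, 5 were tested, 3 higher and 2 lower (median 0.02). Rxylt1, a xylosyltransferase of that chain, was at -0.47 (log2, 95% interval -0.87 to -0.08, unadjusted p 0.0227, adjusted p 0.984 by limma). Its groups did not overlap, beside 5.82% of tested probes that were lower without overlap. It passed the detection threshold in all 3 wild type mice and in 1 Neb SH3-deleted mouse. It thus met the filter mainly through its wild type arrays, and its lower value follows in part from the filter. Because of this its interval and p are a description and not a test. Pomgnt2 was at -0.23 (-0.60 to 0.14), while its other tested probe gave 0.12, and B4gat1 at 0.09 (-0.25 to 0.44).

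Among caveolar and membrane repair genes 5 of 14 were tested, 3 higher and 2 lower (median 0.11). Cav1, the caveolin of endothelium and other non-muscle cells, was at -0.20 (log2, 95% interval -0.53 to 0.13), Anxa5, a calcium-dependent membrane-binding annexin, at 0.18 (-0.18 to 0.55), and Trim72, which seals membrane wounds in muscle, at 0.35 (-0.57 to 1.26). Of 20 integrin and vinculin costamere genes, the second link between membrane and cytoskeleton, 12 were tested, 6 higher and 6 lower (median 0.02). Sptbn1, a spectrin, was at -0.34 (-0.72 to 0.04), Itga7, the laminin-binding integrin chain of muscle, at -0.28 (-0.62 to 0.07), and Ilk, the integrin-linked kinase, at 0.28 (-0.19 to 0.74).

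Other cell types of the tissue gave few tested markers. Of 6 fibroblast markers 3 were tested, 1 higher and 2 lower, with mean levels of 4.55 to 5.14 in wild type and 4.82 to 5.06 in Neb SH3-deleted arrays, and each of the 6 was above background on at least 1 array. Of 5 satellite cell and regeneration markers on the array 1 was tested, Myh8, the perinatal myosin, at -0.11 (log2), while Pax7 and Myf5 were above background on none. Of 4 leukocyte markers 1 was tested, Lyz2, at -0.26 with overlapping groups, and Ptprc, Adgre1 and Itgam were above background on no array. Of 4 tendon markers 0 were tested.

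The genes whose pattern over the 6 arrays was closest to each measured member, by the root mean square difference of levels after each probe's own mean was subtracted, were Triobp and Klf10 for Utrn (0.09 each, where Utrn varied with an SD of 0.34), Adam15 and Dhdds for Dag1 (0.04 each, SD 0.09), Gpatch11 and Clk4 for Sgca (0.03 and 0.04, SD 0.10), Magi1 and Rnf10 for Sgcb (0.06 each, SD 0.24), and Tfg and Dnajc5 for Dtna (0.06 and 0.07, SD 0.28), all in log2 units. For Sspn the nearest were Prdx2 and Etfb at 0.63 and 0.75 (SD 1.18), several times farther than for the other members. None of the 12 nearest genes was another member of the complex. These distances are over 6 arrays and 3422 probes, were smaller for probes of small spread, and are given as a description only.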

How the data were processed

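Biotin-labelled cRNA from Trizol-extracted RNA was hybridised to Illumina arrays, per the labels' protocols. Per the file headers, the main deposited table holds 2 columns per array, the mean signal intensity of a probe and the p-value of its detection, and is not normalized. The authors also deposited processed values that behave as log2 values: each column has a median of 6.10 and follows the rank of its array's signal. The submitters' processing notes name lumi, and whether these values are a plain log2 or variance-stabilized stays unknown, as do centring settings. 0 columns of sample values were left unused.

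Signal intensities were corrected for background by normexp (limma's nec, negative controls inferred from the detection p-values, offset 16), taken to log2 and quantile normalized. A probe was tested, on its own, where its detection p was under 0.05 on 3 or more arrays (3422 probes). The test was that of limma (version 3.58.1, R 4.3.3; lmFit with eBayes, two-sided, no covariate, Benjamini-Hochberg over all tested probes). Earlier work on these arrays tested 1 probe per gene, which is an alternative here. The platform annotation gave 1 symbol for 34885 probes, several for 18 and none for 10378. The code path was tested on simulated arrays.

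The members and gene lists were chosen with earlier results of these data known. Up to 3 genes per list, those of smallest unadjusted p, are named, with the brightest tested probe of a gene standing for it, and for each member tested the 2 genes of nearest pattern. Other genes (those above background on no array, Neb) were named after their values were seen. Levels of different probes are not set against each other. Sample titles gave each array its group and replicate. The sources used here give no slide or scan, so no batch was tested. Sequences of probes and proteins were not used here.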

Additional observations from a re-analysis of the deposited data

How the results depend on the processing

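No tested probe passed an adjusted p of 0.05 in any of 19 alternatives (limma), with 36 to 1895 probes at an unadjusted p under 0.05 (147 as reported), and 0 probes of the complex did, with at most 2 at an unadjusted p under 0.05. The extremes came from a detection p under 0.01 on all 6 arrays (1141 probes tested) and from no filter (45281 tested). Leaving out both arrays that stood apart was chosen after the data were seen. No slide is given, so a slide block could not be fitted. With a detection p under 0.01 in place of 0.05, 5 in place of 8 probes of the complex were above background on at least 3 arrays. The direction of the 8 tested probes held in 134 of 141 values and turned in 7, all of Sgca. Part of the 134 could not turn. No filter, the replicate block and a changed eBayes setting return the same difference. For genes with 1 tested probe, so do the choices of 1 probe or of the mean per gene. With median scaling ILMN_1248215 was at -0.0633, ILMN_1222601 at -0.0152 and ILMN_2938154 at -0.0241. With each array left out, ILMN_1222601 ran from -0.157 to 0.29, below 0 without Neb SH3-deleted replicate 2 (-0.0158) or 3 (-0.0920) or wild type replicate 2 (-0.157), and ILMN_2938154 from -0.0523 (without Neb SH3-deleted replicate 3) to 0.24. The cause was not tested. Differences were smaller without background correction, with offset 50 and in the deposited values, where Sspn was at -0.45, -0.57 and -0.44. The labels do not say whether a replicate number pairs 2 animals. Within-group deviations of arrays with the same number correlated at -0.22, -0.18 and 0.09, and the highest value (0.32) joined Neb SH3-deleted replicate 1 and wild type replicate 2. With the replicate block 0 probes passed, 117 were at an unadjusted p under 0.05, and Utrn was at 0.49 (adjusted p 0.992) and Sspn at -0.98 (unadjusted p 0.0496, adjusted p 0.992). Signal over background limits what can be compared, since 14 of 23 probes gave none on any array.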
